A study of Capra hircus with 12 samples.

Results

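The genes described here are 6 macrophage and antigen presentation genes of the goat: FCER1G, AIF1, CD68, CD14, CTSS and CD74. They were chosen by name from a list of 7, and each of the 6 stood on 1 line in every one of the 12 count tables, among the 15810 genes listed in all of them. The name CSF1R, the seventh, was not used for any gene in the tables. A colony stimulating factor receptor is listed under gene ID 100861303 as LOC100861303, and RefSeq's annotation of the goat assembly ARS1.2 gives that ID the symbol CSF1R. Its values are given beside the 6 genes and it enters none of their counts. All 6 genes passed the filter on low counts that left 13624 genes for testing.

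The data were RNA-seq read counts from mammary gland biopsies of lactating female dairy goats (Capra hircus). Glucose had been infused into the gland at 1 of 3 doses (low, middle, high), with 4 libraries per dose. All 12 libraries came from infused glands, so each comparison was between doses, and numeric doses, breed and age were not analysed here. The labels do not say whether the libraries of a dose came from different goats, so a p-value reflects the spread between these 12 samples, part of which may be technical. Levels are given as CPM, read counts relative to library size, scaled for library composition by the trimmed mean of M values (TMM). Transcript length was not used, so levels are compared between libraries and not between genes.

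Macrophages live beside and within the mammary epithelium, where they take up milk components and dying cells and help to remodel the gland. With dendritic cells and B cells they are professional antigen presenting cells, which digest captured proteins in endosomes and show the peptides on major histocompatibility complex (MHC) class II molecules. CD74, the invariant chain, escorts newly made class II molecules and blocks their groove until cathepsin S (CTSS) trims it. FCER1G is the shared signalling chain of several Fc receptors and carries an activation motif (ITAM), AIF1 is a calcium-binding protein of the macrophage cytoskeleton, CD68 is a heavily glycosylated lysosomal membrane protein, and CD14 hands lipopolysaccharide to Toll-like receptor TLR4.

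Counts over the listed genes totalled 9555072 to 12716883 per library. Transcripts of 8 milk protein genes took 42.1 to 58.9% of the counts in 4 libraries (high-dose replicate 2 and all of the middle dose but replicate 3) and 2.18 to 21.2% in the other 8. Middle-dose replicate 3 stood apart from the rest of its dose with 3.44%, and the calls of the 6 genes and of each list at the middle against the low dose are therefore also given without it. The gene rosters of the tables fell into 2 layouts, 4 libraries in one (low-dose replicate 3, middle-dose replicate 1 and high-dose replicates 1 and 4) and 8 in the other. In a biopsy, fewer cells of a type and less RNA per cell cannot be told apart.

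CD74 and CTSS, which act one after the other in class II presentation, had their lowest levels at the middle dose. For CD74 (gene ID 102185560, chromosome 7, 57987431 to 57995580 in the tables' coordinates, whose build is not stated), the low-dose replicates 1 to 4 held 978, 843, 1417 and 1091 CPM, the middle-dose replicates 475, 499.8, 873 and 357 CPM, and the high-dose replicates 774, 737, 563.5 and 1010.1 CPM. Middle-dose replicates 1, 2 and 4 lay below every other library, and only replicate 3 overlapped the low dose. The mean was 1082 ± 245 CPM (SD, n = 4) for low, 551 ± 223 CPM for middle and 771 ± 184 CPM for high. The fitted log2 difference of middle from low was -0.97 ± 0.29 (SE, edgeR adjusted p = 0.0924), a level 1.96-fold lower that did not pass the threshold of 0.05.

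For CTSS (gene ID 102183747, chromosome 3, 18543553 to 18568090), the low-dose replicates held 236, 154, 281 and 224 CPM, the middle-dose replicates 101, 94.3, 159.9 and 81.9 CPM, and the high-dose replicates 151, 203, 135 and 194 CPM. Again middle-dose replicates 1, 2 and 4 were the 3 lowest of the 12, and replicate 3 lay just above low-dose replicate 2. The means were 224 ± 52.5, 109 ± 34.6 and 171 ± 32.7 CPM (SD, n = 4 each) at the low, middle and high dose. The middle dose was 2.04-fold below the low dose on the fitted scale, a log2 difference of -1.03 ± 0.24 (edgeR adjusted p = 0.0735). The high dose lay between, at a log2 difference of 0.64 ± 0.24 from the middle dose (edgeR adjusted p = 0.277) and -0.39 ± 0.24 from the low dose (0.524).

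The 2 genes of receptor signalling and the macrophage cytoskeleton had the same order of doses, and for both of them the low and middle dose did not overlap. FCER1G (gene ID 102191004, chromosome 3, 7770971 to 7774661) held 27.2, 21.0, 31.0 and 28.1 CPM in the low-dose replicates 1 to 4, 12.2, 11.6, 18.1 and 7.33 CPM in the middle-dose replicates, and 15.7, 16.7, 18.9 and 22.5 CPM in the high-dose replicates. All 4 middle-dose libraries were below all 4 low-dose libraries, and the high dose overlapped both. This was the gene with the fewest reads, 36 to 459 per library. The fitted log2 difference of middle from low was -1.11 ± 0.24 (edgeR adjusted p = 0.0735), and that of high from low was -0.54 ± 0.24 (edgeR adjusted p = 0.419).

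AIF1 (gene ID 100860979, chromosome 23, 26110015 to 26112430) held 34.8, 36.2, 52.2 and 47.5 CPM in the low-dose replicates, 16.9, 17.9, 30.1 and 18.1 CPM in the middle-dose replicates, and 26.8, 37.6, 23.4 and 27.0 CPM in the high-dose replicates. Middle-dose replicates 1, 2 and 4 lay close together and replicate 3 stood well above them, still under every low-dose library. The log2 difference of middle from low was -1.03 ± 0.23 (edgeR adjusted p = 0.0735) and that of high from low -0.57 ± 0.23 (edgeR adjusted p = 0.395). Of all genes tested, 11.8% did not overlap between the middle and the low dose, 5.92% with the middle dose lower. FCER1G and AIF1 made 2 of 6.

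**Figure D1:**
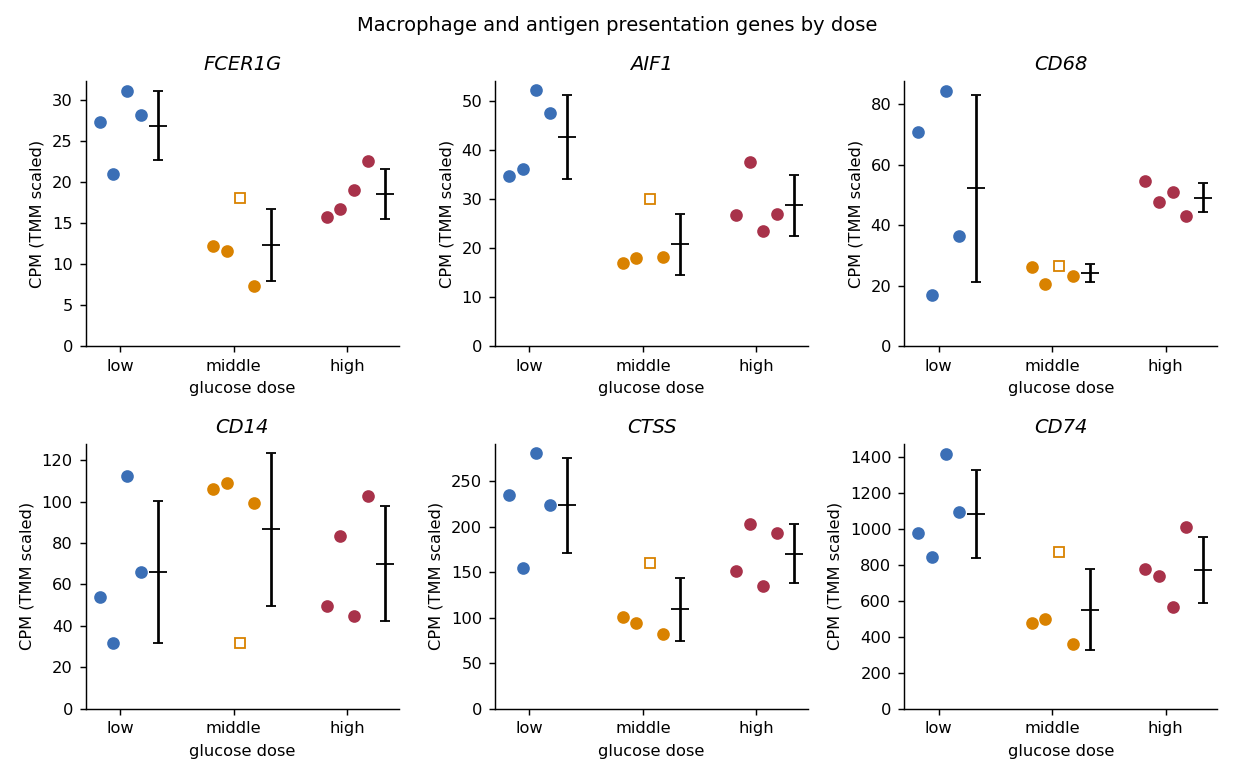
Level of each gene in each library, in CPM on a linear axis from 0, by glucose dose; points are single libraries, the open square is middle-dose replicate 3, and the bar beside each dose is the mean ± SD (n = 4). FCER1G, AIF1, CTSS and CD74 share 1 pattern with the middle dose lowest, CD68 is wide at the low dose, and CD14 has 3 of its 5 highest libraries at the middle dose.

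CD68, the lysosomal marker, differed from these 4 genes in how its low-dose libraries were spread. It (gene ID 102189793, chromosome 19, 26541124 to 26544146) held 70.8, 17.1, 84.3 and 36.4 CPM in the low-dose replicates, 26.2, 20.5, 26.6 and 23.2 CPM in the middle-dose replicates, and 54.6, 47.8, 50.8 and 43.1 CPM in the high-dose replicates. The low dose held both the highest and the lowest of the 12 libraries, whereas the other doses were tight. The mean was 52.1 ± 30.9 CPM (SD, n = 4) for low, 24.1 ± 2.88 CPM for middle and 49.1 ± 4.83 CPM for high. Every high-dose library lay above every middle-dose library, as was the case for 3.33% of all genes tested (5.94% in either direction), with a log2 difference of 1.02 ± 0.37 (edgeR adjusted p = 0.267). Against the low dose the log2 difference was -1.11 ± 0.37 for the middle dose (edgeR adjusted p = 0.115) and -0.09 ± 0.37 for the high dose (edgeR adjusted p = 0.935). The sign of the last one turned with the libraries used: it was 0.25 without low-dose replicate 3, 0.10 without low-dose replicate 1 and 0.29 within the layout of 8 libraries.

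CD14, the lipopolysaccharide co-receptor, was the one gene of the 6 that was not lowest at the middle dose. It (gene ID 102177056, chromosome 7, 47954630 to 47957808) held 54.1, 31.6, 112 and 66.1 CPM in the low-dose replicates, 106, 109, 31.7 and 99.2 CPM in the middle-dose replicates, and 49.7, 83.2, 44.6 and 103 CPM in the high-dose replicates. Middle-dose replicates 1, 2 and 4 were near the top of the range and replicate 3 near the bottom, beside low-dose replicate 2, so that the doses overlapped throughout. The means of 66.0 ± 34.0, 86.5 ± 36.8 and 70.0 ± 27.7 CPM (SD, n = 4 each) at the low, middle and high dose differed by less than the spread within a dose. The fitted log2 difference of middle from low was 0.39 ± 0.44 (edgeR adjusted p = 0.611) and 0.67 ± 0.38 without middle-dose replicate 3 (edgeR adjusted p = 0.237). It was -0.69 by library size alone, a scaling under which the median of all genes itself moved to -0.86.

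The receptor under the RefSeq name CSF1R (chromosome 7, 57627190 to 57658940), through which macrophages receive their main survival signal, held 89.4, 56.3, 158 and 116 CPM in the low-dose replicates, 60.7, 65.9, 79.5 and 46.9 CPM in the middle-dose replicates, and 74.4, 95.2, 61.6 and 109.8 CPM in the high-dose replicates. Its doses overlapped, with low-dose replicate 2 among the lowest libraries. The log2 difference of middle from low was -0.73 ± 0.29 (edgeR adjusted p = 0.163), and -0.86 ± 0.32 without middle-dose replicate 3 (edgeR adjusted p = 0.0806). Low-dose replicate 3 was the highest of the 12 libraries for this gene and for all 6 others.

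In the comparison of the middle with the low dose, 5 of the 6 genes had a lower estimate at the middle dose, against 52.6% of all genes tested, and their median log2 difference was -1.03 against -0.03 over all genes. None of the 6 passed edgeR's threshold, nor did any of the 13624 genes (0%). At an unadjusted p under 0.05 there were 5 of the 6, all lower, where 23.7% of all genes reached that level and 11.3% did so with a lower middle dose. The DESeq2 test called 5 of the 6, all lower, where it called 10.3% of all genes and 4.29% as lower. Limma voom with quality weights also called 5, where it called 34.5% of all genes and 17.5% as lower. CD14 was the gene left out by both.

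In edgeR the call of 4 genes turned on middle-dose replicate 3. Without it, edgeR called 4 of the 6 genes lower at the middle dose, with 17.3% of all genes called, 8.63% lower and 8.69% higher. CD74 had a log2 difference of -1.29 ± 0.26 (edgeR adjusted p = 0.0116), CTSS of -1.27 ± 0.22 (0.00863), AIF1 of -1.27 ± 0.21 (0.00702) and FCER1G of -1.36 ± 0.23 (0.00747). CD68 stayed outside at -1.16 ± 0.42 (edgeR adjusted p = 0.0781). Leaving out any other single library gave no call among the 6.

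For CTSS and CD68 the high dose lay nearer to the low than to the middle dose in the fit, for AIF1 nearer to the middle dose, and for FCER1G and CD74 about midway. Against the low dose 5 of the 6 estimates were lower, where 53% of all genes had a lower estimate, with a median log2 difference of -0.44 against -0.03 over all genes. No gene of the 6 and none of all genes (0%) passed in edgeR. FCER1G and AIF1 had an unadjusted p under 0.05, both lower, where 11.5% of all genes reached that level in either direction and 4.18% of all genes with a lower high dose. No gene of the 6 was called by DESeq2, which called 0.418% of all genes, or by limma voom (0%), and none was free of overlap between these doses (4.73% of all genes).

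Against the middle dose, the high dose had higher estimates for 5 of the 6 genes and a lower one for CD14 (log2 difference -0.30 ± 0.44, edgeR adjusted p = 0.759), where 47.2% of all genes were lower. The median was 0.53, against 0.03 over all genes. EdgeR again called none of the 6 and none of all genes (0%). FCER1G, CD68 and CTSS had an unadjusted p under 0.05, all higher, where 14.9% of all genes reached that level in either direction and 7.49% of all genes with a higher high dose. DESeq2 called none of the 6 and 2% of all genes, and limma voom called CTSS alone (log2 difference 0.96 ± 0.19, adjusted p = 0.0314) and 2.45% of all genes, 1.09% as higher and 1.36% as lower. In edgeR's test of any difference between doses none of the 6 was called (0% of all genes), and 5 had an unadjusted p under 0.05, where 21.4% of all genes did. DESeq2 called 4 of the 6 in that test and 8.21% of all genes, and limma voom called 4 and 28.2%. Without middle-dose replicate 3 edgeR called 4 and 9.34%. The 3 comparisons share libraries, so they are not independent of each other.

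**Figure D2:**
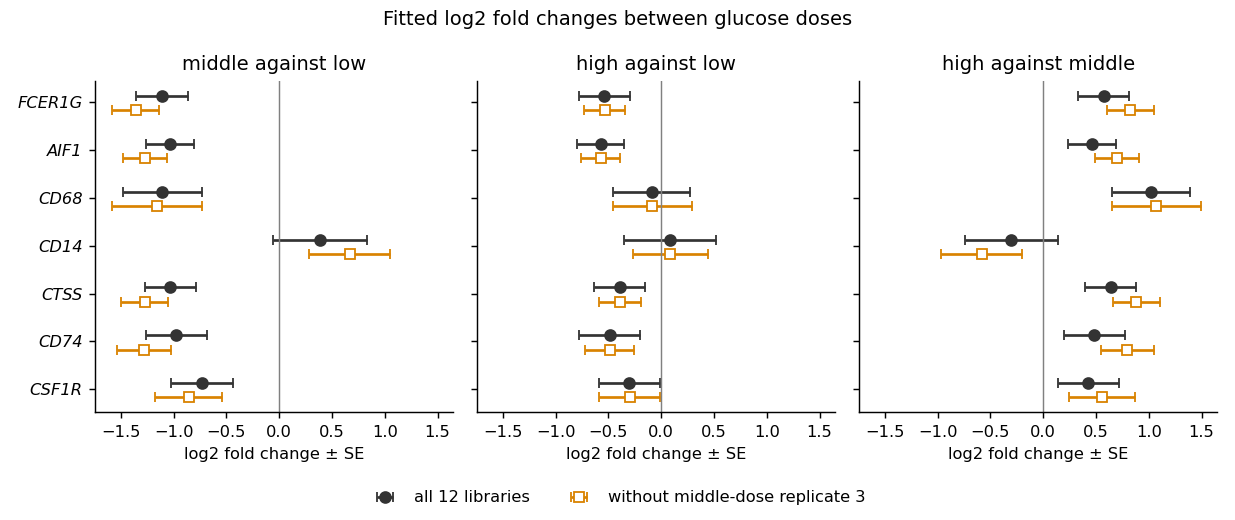
Fitted log2 fold change ± SE of each gene in the 3 comparisons of doses, from edgeR, with all 12 libraries (filled circles) and without middle-dose replicate 3 (open squares). Leaving that library out moves FCER1G, AIF1, CTSS and CD74 further below 0 in the middle against the low dose and CD14 further above it, and hardly moves the high against the low dose.

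The ratio of 2 genes' counts within a library needs no scaling between libraries, and it shows which of the pairs looked at here were steadier than others. Counts of CD74 ran from 1754 to 20241 reads, an 11.5-fold range, and its CPM spanned a 3.97-fold range. Raw counts also carry shifts between libraries that many genes share, so the CPM range is the one to set beside a ratio. The ratio of CTSS to CD74 counts ran from 0.183 to 0.275. Ratio ranges were not worked out for pairs drawn from all genes, so whether such steadiness is unusual was not tested. The DR alpha chain of MHC class II (LOC102189356), which CD74 escorts, held 0.675 to 0.895 reads per read of CD74 in the 12 libraries, a 1.33-fold range. The ratio of FCER1G to CD74 ran from 0.0203 to 0.0336 and that of AIF1 to CTSS from 0.140 to 0.235. Ratios of FCER1G to AIF1, from 0.404 to 0.834, and of AIF1 to CD74, from 0.0267 to 0.0510, were less steady, with ranges of 2.06-fold and 1.91-fold.

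CD68 and CD14 did not keep step. The ratio of CD68 to CTSS counts ran from 0.111 in low-dose replicate 2 to 0.377 in high-dose replicate 3. The ratio of CD14 to CTSS counts was 1.05, 1.16 and 1.21 in middle-dose replicates 1, 2 and 4 and 0.198 in replicate 3. It was 0.205 to 0.400 in the low-dose libraries and 0.328 to 0.531 in the high-dose libraries. In 3 libraries of the middle dose CD14 had thus more reads per read of CTSS than in any of the other 9, and in the fourth it had fewer than in any of them.

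**Figure D3:**
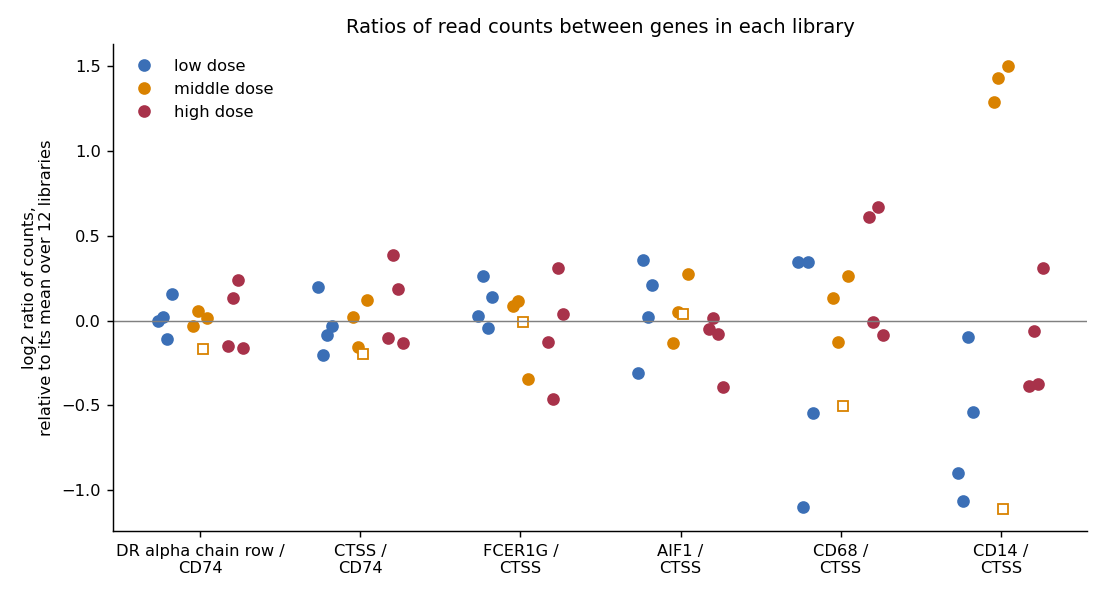
Log2 ratio of the read counts of 2 genes within each library, relative to the mean of that ratio over the 12 libraries; colours are the doses and the open square is middle-dose replicate 3. The ratios of the DR alpha chain to CD74 and of CTSS to CD74 stay close to 0 in all libraries, whereas the ratio of CD14 to CTSS is highest in middle-dose replicates 1, 2 and 4 and lowest in replicate 3.

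Over the 12 libraries, Pearson's r of log2 CPM was 0.95 between CTSS and CD74, 0.94 between FCER1G and CD74, 0.93 between FCER1G and CTSS and 0.92 between AIF1 and CTSS. CD68 had r of 0.51 to 0.71 with these 4 genes and CD14 had r of -0.26 to -0.14 with them. These values describe 12 libraries that share their scaling factors and the dose, and no test was made. With the dose means removed and middle-dose replicate 3 left out, CD14 had r of 0.92 with CTSS, 0.83 with CD74 and 0.96 with CSF1R over the remaining 11 libraries. On the same measure r was 0.79 between CTSS and CD74, 0.71 between FCER1G and CD74, 0.47 between AIF1 and CD74 and 0.08 between FCER1G and AIF1. With the dose means removed from all 12 libraries, CD14 had r of 0.098 with CTSS, -0.021 with CD74 and 0.48 with CSF1R. FCER1G then had r of 0.50 with AIF1. The r of CD14 with CTSS and of FCER1G with AIF1 thus turned on middle-dose replicate 3. Without that library FCER1G and AIF1 had r of 0.64 and 0.65 with CTSS.

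Likeness of pattern was measured over 11659 named genes whose log2 CPM averaged 1 or more. The 3 whose log2 CPM over the 12 libraries was most like that of CTSS were MPEG1 (r = 0.98), NCKAP1L (0.97) and MARCH1 (0.95). Those most like CD74 were SRGAP2 (0.96), C1QC (0.95) and CTSS itself (0.95). For FCER1G they were IRF8 (0.96), GNG5 (0.95) and PREX1 (0.95), and for AIF1 they were PTPN7 (0.95), MARCH1 (0.93) and CTSS (0.92). CD68 had LILRB5 (0.92), MT2A (0.91) and AGP (0.90), and CD14 had PRUNE2 (0.97), CNTFR (0.96) and ADARB1 (0.95). The 3 genes nearest CD14 did not recur among those nearest any of the other 5, and the same held for FCER1G and for CD68. The 5 genes with the highest mean r over all 6 were NCKAP1L (0.74), SH3KBP1, MPEG1, CD53 and EVI2B (0.71).

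The levels were set beside the share of milk protein reads. Of the 4 libraries with over 40% of milk protein reads, all but high-dose replicate 2 were from the middle dose. In low-dose replicates 1 to 4, with 2.61, 2.18, 12.3 and 13.7% of these reads, CTSS held 236, 154, 281 and 224 CPM. In high-dose replicates 1 to 4, with 7.48, 42.1, 8.83 and 21.2%, it held 151, 203, 135 and 194 CPM. In the 4 libraries with over 40% of milk protein reads FCER1G held 7.33 to 16.7 CPM against 15.7 to 31.0 CPM in the other 8, and CTSS held 81.9 to 203 CPM against 135 to 281 CPM. CD14 held 83.2 to 109 CPM in those 4 libraries and 31.6 to 112 CPM in the other 8. High-dose replicate 2, with 42.1% of milk protein reads, held 203 CPM of CTSS and 37.6 CPM of AIF1, for both the highest of its dose. Its FCER1G (16.7 CPM), CD68 (47.8 CPM), CD14 (83.2 CPM) and CD74 (737 CPM) lay within the range of the other high-dose libraries. Middle-dose replicate 3, with 3.44%, held more CTSS than the rest of the middle dose. With the milk protein genes left out of the table the log2 differences of all 6 genes kept their signs in the 3 comparisons. The part of the milk protein share in the differences between doses was not tested.

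**Figure D4:**
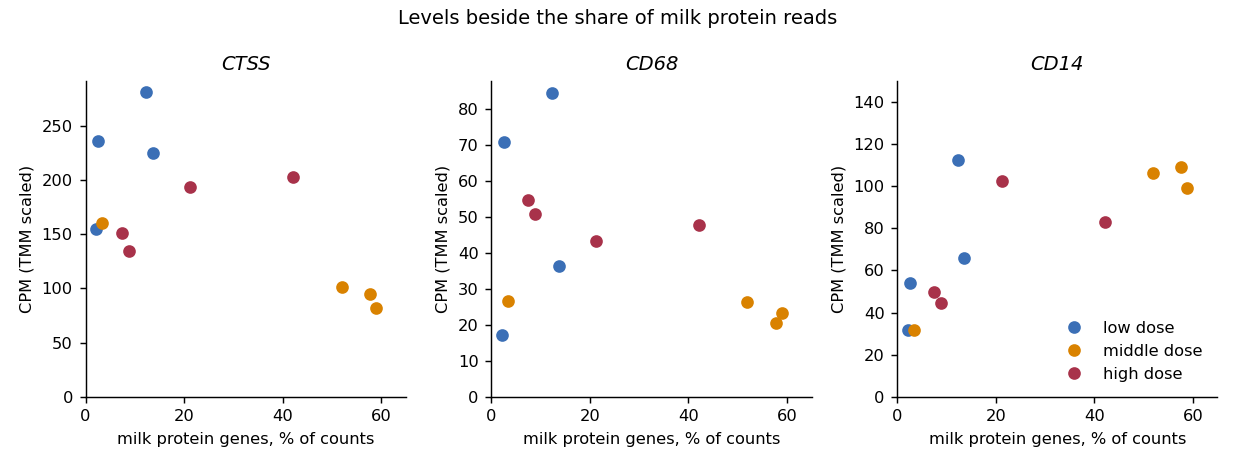
Level of CTSS, CD68 and CD14 in CPM against the share of counts taken by milk protein genes, in percent, for the 12 libraries coloured by dose. Middle-dose replicates 1, 2 and 4, at 52.0 to 58.9% of milk protein reads, are the lowest for CTSS and near the top for CD14, and high-dose replicate 2 at 42.1% is high for CTSS.

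Other leukocyte genes lay lower at the middle dose too. Of 7 pan-leukocyte genes, all 7 had a lower estimate against the low dose and an unadjusted p under 0.05, and none passed edgeR's threshold (11.3% of all genes were lower at that unadjusted level, 0% called). EdgeR called 6 of the 7 lower without middle-dose replicate 3, where it called 8.63% of all genes lower. PTPRC, the CD45 phosphatase, had a log2 difference of -0.93 ± 0.19, and CORO1A, an actin regulator of leukocytes, one of -1.27 ± 0.25 (edgeR adjusted p = 0.0735 for both). Measured against the mean log2 level of these 7 genes, CTSS lay at 1.56 ± 0.14, 1.56 ± 0.34 and 1.83 ± 0.25 at low, middle and high (SD, n = 4 each), and CD74 at 3.84 ± 0.09, 3.86 ± 0.49 and 3.99 ± 0.23. Relative to leukocyte genes, then, the low and middle means of both lay closer together than their SD. In the same order of doses FCER1G lay at -1.48 ± 0.16, -1.61 ± 0.50 and -1.37 ± 0.11, and AIF1 at -0.82 ± 0.24, -0.83 ± 0.33 and -0.75 ± 0.37. CD68 lay at -0.75 ± 0.77, -0.58 ± 0.12 and 0.05 ± 0.32, highest at the high dose. CD14 lay at -0.31 ± 0.45, 1.12 ± 1.07 and 0.48 ± 0.46 on the same scale, with 1.43, 2.01 and 1.47 in middle-dose replicates 1, 2 and 4 and -0.44 in replicate 3.

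The partners of CD74 and CTSS in class II presentation were read from 12 further genes of the pathway, of which 10 had a lower estimate at the middle than at the low dose and 7 an unadjusted p under 0.05, all lower (11.3% of all genes). EdgeR called none with all libraries (0% of all genes) and 5 lower without middle-dose replicate 3 (8.63% of all genes). With all libraries DESeq2 called 2 lower (4.29% of all genes) and limma voom 7 lower (17.5%). CIITA, the master switch of class II transcription, had a log2 difference of -1.18 ± 0.45 and RFX5, which binds class II promoters, one of -0.70 ± 0.29. MARCH1, a ubiquitin ligase that removes class II molecules from the surface, was at -1.23 ± 0.27, and the costimulatory receptor CD40 at -1.03 ± 0.29. The cathepsins CTSL and CTSB were at -1.85 ± 0.71 and -0.90 ± 0.34. The edgeR adjusted p of these 6 genes ran from 0.0735 to 0.176.

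The class II chains themselves carry only descriptions in the tables, and 13 of 16 such genes were tested. The estimate was lower at the middle dose for 12 of the 13, with a median log2 difference of -1.38, and 9 had an unadjusted p under 0.05, all lower (11.3% of all genes). EdgeR called none with all libraries and 6 lower without middle-dose replicate 3 (8.63% of all genes). With all libraries DESeq2 called 6 lower (4.29% of all genes) and limma voom 7 lower (17.5%). The DR alpha chain was at -1.04 ± 0.24, a DR beta chain (LOC102173458) at -1.25 ± 0.23, and the peptide loading chains DM alpha (LOC102188267) and DM beta (LOC102187998) at -0.91 ± 0.31 and -1.38 ± 0.37, with edgeR adjusted p of 0.0735 to 0.116. Where class II copies are near-identical their reads can be split between them, which was not examined here, so single chains are uncertain. The 13 include DQ chains with many reads in some libraries of a dose and few or none in others, described under Other observations. Those chains enter the median and the counts given here.

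MHC class I presentation, which all nucleated cells carry out, was read from 16 genes. There were 14 with a lower estimate at the middle dose (52.6% of all genes), at a median of -0.46, and 3 with an unadjusted p under 0.05, all lower (11.3% of all genes): the peptide transporter TAP1 (-0.95 ± 0.26), the immunoproteasome subunit PSMB9 (-0.85 ± 0.34) and the class I transactivator NLRC5 (-0.47 ± 0.21). The endoplasmic reticulum chaperone CALR was at -0.22 ± 0.26. EdgeR called none of the 16 with all libraries and 7 lower without middle-dose replicate 3 (median -0.86, 8.63% of all genes called lower). With all libraries DESeq2 called 1 lower (4.29% of all genes) and limma voom 10 lower (17.5%). B2M, the light chain of class I molecules, was at 0.47 ± 0.38 (edgeR adjusted p = 0.461) and at -0.55 by library size alone, where the median of all genes was -0.86.

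Among 15 cathepsin and lysosomal genes, the setting in which CTSS and CD68 work, 12 had a lower estimate at the middle dose and 7 an unadjusted p under 0.05, all lower (11.3% of all genes). CTSC and CTSZ, both lysosomal proteases, were at -0.96 ± 0.28 and -0.98 ± 0.30, and CST3, a secreted cathepsin inhibitor, at -0.69 ± 0.24 (edgeR adjusted p = 0.0857, 0.100 and 0.124). EdgeR called none with all libraries and 6 of the 15 lower without middle-dose replicate 3 (8.63% of all genes). With all libraries DESeq2 called 2 lower (4.29% of all genes) and limma voom 6 lower (17.5%).

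FCER1G signals through kinases and adaptors that read its ITAM, and 18 genes of Fc receptors and ITAM signalling were tested. At the middle dose 14 had a lower estimate than at the low dose, 8 with an unadjusted p under 0.05, and 4 a higher one, 1 of them with an unadjusted p under 0.05 (11.3% of all genes lower and 12.5% higher). TYROBP, the sister adaptor of FCER1G, was at -0.92 ± 0.30, and the adaptors LAT2 and BLNK at -0.99 ± 0.21 and -1.11 ± 0.29. The phosphoinositide kinase subunits PIK3R5 and PIK3CD were at -0.82 ± 0.18 and -1.06 ± 0.30, with edgeR adjusted p for these 5 genes of 0.0735 to 0.109. SYK, the kinase that binds the phosphorylated ITAM, was at 0.66 ± 0.31 (edgeR adjusted p = 0.222) and at -0.38 by library size alone, where the median of all genes was -0.86. Its difference of the high from the middle dose was -1.06 ± 0.31 (edgeR adjusted p = 0.224). Without middle-dose replicate 3 that last difference passed, at -1.25 ± 0.29 (edgeR adjusted p = 0.0431), where 1.96% of all genes were called lower. For middle against low edgeR then called 6 of the 18 lower and 1 higher (8.63% and 8.69% of all genes). It called none with all libraries. DESeq2 with all libraries called 6 lower and 1 higher (10.3% of all genes, 4.29% as lower). Limma voom called 7 lower and 4 higher (17.5% and 17% of all genes).

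CSF1R answers to 2 ligands. CSF1 was at -0.73 ± 0.30 for the middle against the low dose and IL34 at -0.87 ± 0.40 (edgeR adjusted p = 0.168 and 0.208). The myeloid transcription factors SPI1 and IRF8 were at -1.14 ± 0.48 and -1.29 ± 0.26, and FLT3, a growth factor receptor of dendritic cell precursors, at -1.06 ± 0.32. IRF8 held 30.8 to 36.1 CPM in the low-dose libraries, 6.93 to 20.9 CPM in the middle-dose ones and 16.2 to 20.9 CPM in the high-dose ones, so that the low dose stood above every other library. Of all genes, 5.92% lay without overlap lower at the middle than at the low dose. Between the high and the low dose 4.73% did not overlap in either direction. Over the 12 genes of this group 10 estimates were lower at the middle dose, 6 with an unadjusted p under 0.05 (11.3% of all genes). With all libraries edgeR called none and DESeq2 2 lower (4.29% of all genes). Limma voom called 5 lower and 1 higher (17.5% and 17% of all genes). Without middle-dose replicate 3 edgeR made 3 calls, all lower (8.63% of all genes). They were IRF8 at -1.60 ± 0.22, IL34 at -1.41 ± 0.34 and FLT3 at -1.23 ± 0.36 (edgeR adjusted p = 0.00475, 0.0196 and 0.0382).

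The genes around CD14 were split in direction under TMM scaling, and all lower by library size alone. Of 21 genes of Toll-like receptor signalling, 12 had a lower and 9 a higher estimate at the middle than at the low dose, with a median log2 difference of -0.10, and 3 lower and 1 higher had an unadjusted p under 0.05 (11.3% and 12.5% of all genes). By library size alone all 21 were lower, at a median of -0.93, where the median of all genes was -0.86. EdgeR called none with all libraries, and 2 lower and 2 higher without middle-dose replicate 3 (8.63% and 8.69% of all genes). With all libraries DESeq2 called 2 lower (4.29% of all genes). Limma voom called 4 lower and 5 higher (17.5% and 17% of all genes). The partners of CD14 at the membrane, TLR4 and LY96, were at 0.68 ± 0.37 and 0.28 ± 0.51, and the adaptors MYD88 and TRAF6 at 0.61 ± 0.26 and 0.52 ± 0.34. All 4 turned negative by library size alone (-0.42, -0.73, -0.34 and -0.47), as CD14 did, and edgeR adjusted p with TMM ran from 0.182 to 0.764. TLR4 passed without middle-dose replicate 3, at 0.97 ± 0.26 (edgeR adjusted p = 0.0303). LBP, which delivers lipopolysaccharide to CD14, was at -0.91 ± 0.98 and varied from 3.57 to 181 CPM within the low dose.

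Downstream of these receptors, IL1B, a pyrogenic cytokine, was at -1.20 ± 0.37 (edgeR adjusted p = 0.0975). CCL2, the chemokine that draws monocytes into tissue, held 8.74 to 27.9 CPM in the low-dose libraries, 1.91 to 6.95 CPM in the middle-dose ones and 14.6 to 41.8 CPM in the high-dose ones. The middle dose did not overlap either of the others. The log2 difference was -2.08 ± 0.51 for middle against low (edgeR adjusted p = 0.0735) and 2.89 ± 0.52 for high against middle (edgeR adjusted p = 0.196). With middle-dose replicate 3 left out edgeR called CCL2 in both, at -2.61 ± 0.54 (adjusted p = 0.0125) and 3.43 ± 0.55 (0.0199), and IL1B for middle against low, at -1.58 ± 0.36 (0.0169). It then called 8.63% of all genes lower for middle against low and 1.7% higher for high against middle.

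Markers of macrophages and of other cells were read as lists, some genes standing in more than 1 list. Of 22 other macrophage and monocyte markers, 20 had a lower estimate at the middle dose, at a median of -0.81. Of the 22, 11 were lower with an unadjusted p under 0.05 (11.3% of all genes) and edgeR called none (0%). Their summed level was 665 to 1358, 471 to 851 and 588 to 934 CPM in the low-, middle- and high-dose libraries. MPEG1, a pore-forming protein of phagocytes, was at -1.14 ± 0.30, and LAPTM5, a lysosomal protein of leukocytes, at -0.92 ± 0.24 (edgeR adjusted p = 0.0798 for both). EdgeR made 8 calls without middle-dose replicate 3, all lower (8.63% of all genes). With all libraries DESeq2 called 4 of the list lower (4.29% of all genes) and limma voom 11 lower (17.5%).

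Several of the 6 genes are also made by dendritic cells, B cells or neutrophils. Dendritic cell genes were lower for 11 of 12 at the middle dose, with a summed level of 102 to 132 CPM for low, 42.7 to 85.1 CPM for middle and 65.6 to 85.1 CPM for high; the ranges that follow are in the same order. B and plasma cell genes were lower for 6 of 11 with TMM (median -0.31), for 10 of 11 by library size alone (-1.28, against -0.86 over all genes) and for 5 of 11 in limma voom (0.12), at 130 to 598, 298 to 532 and 233 to 848 CPM. T and NK cell genes were lower for 17 of 17, at 294 to 426, 110 to 239 and 124 to 303 CPM. Neutrophil genes were lower for 7 of 8 at the middle against the low dose and higher for 8 of 8 at the high against the middle dose, at 23.7 to 57.9, 14.9 to 42.7 and 26.3 to 113 CPM. ELANE and MPO, also on the neutrophil list, had at most 22 reads in any library and were not tested. Mast cells, which carry FCER1G in their IgE receptor, had 4 of 5 lower, at 15.9 to 33.5, 14.5 to 23.3 and 14.4 to 37.3 CPM, and their IgE receptor gene MS4A2 had at most 30 reads. EdgeR called none of these genes with all libraries. DESeq2 called 6 dendritic and 5 T and NK cell genes lower for middle against low (4.29% of all genes). It called 2 neutrophil genes higher for high against middle (0.925% of all genes). Limma voom called 7 dendritic, 5 T and NK, 2 B and plasma and 1 neutrophil cell gene lower for middle against low (17.5%). Without middle-dose replicate 3 edgeR called 5 dendritic, 5 T and NK and 1 B and plasma cell gene lower for middle against low and no neutrophil or mast cell gene (8.63% of all genes). The part of these cell types in the levels of the 6 genes was not tested.

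Among the cells of the gland that are not leukocytes, endothelial genes were higher for 9 of 9 at the middle dose (median 0.61, 5 with an unadjusted p under 0.05, as 12.5% of all genes). By library size alone they were lower for 9 of 9 (median -0.51), where the median of all genes was -0.86. The summed level of the endothelial genes was 669 to 892, 697 to 1423 and 717 to 934 CPM in the low-, middle- and high-dose libraries. Fibroblast genes were lower for 9 of 9 (median -0.63, 3 with an unadjusted p under 0.05), and luminal epithelial genes for 5 of 6 (median -0.44). The summed luminal level went the other way in most middle-dose libraries. It was 1741 to 2472 CPM at the low dose and 1989 to 3083 CPM at the high dose. At the middle dose it was 3391 to 4177 CPM in replicates 1, 2 and 4 and 2113 CPM in replicate 3. With all libraries edgeR called none. DESeq2 called 2 endothelial genes higher, 1 luminal gene lower and 1 higher, and no fibroblast gene (10.3% of all genes, 4.29% as lower). Limma voom called 6 endothelial genes higher, 7 fibroblast genes lower, 2 luminal genes lower and 1 higher (17% of all genes higher, 17.5% lower). Without middle-dose replicate 3 edgeR called 5 endothelial genes higher and no fibroblast gene. It called 2 luminal genes lower and 1 higher (8.63% of all genes lower and 8.69% higher).

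**Figure D5:**
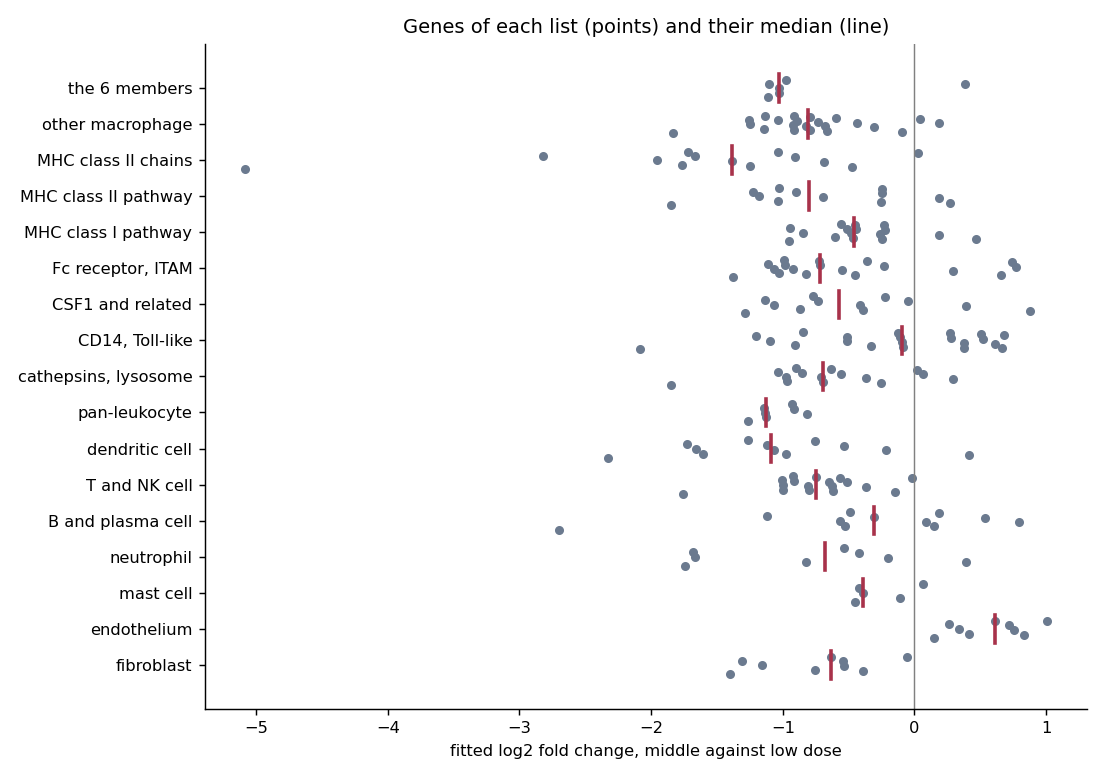
Fitted log2 fold change of the middle against the low dose for each gene of each list (points) with the list's median (line), from edgeR with TMM scaling and all 12 libraries. The leukocyte, macrophage, dendritic cell and class II lists lie mostly below 0, the CD14 and Toll-like receptor list is spread around a median of -0.10, and the endothelial list lies above 0 (below 0 by library size alone, where the median of all genes was -0.86).

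The order of doses was looked at within each table layout. In the layout of 8 libraries the means for CTSS were 205, 112 and 169 CPM at the low, middle and high dose (n = 3, 3 and 2), and in the layout of 4 libraries 281, 101 and 172 CPM (n = 1, 1 and 2). CD74 held 971, 577 and 650.4 CPM in the first and 1417, 475 and 892 CPM in the second, and FCER1G and AIF1 likewise had the low dose highest and the middle dose lowest in both. CD68 held 41.4, 23.4 and 49.3 CPM in the layout of 8, where its high dose was highest, and CD14 held 50.6, 80.0 and 63.9 CPM in the layout of 8 and 112, 106 and 76.2 CPM in that of 4. The order of CD14 thus differed between layouts, and low-dose replicate 3, the one low-dose library of its layout, held the top value.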

How the data were processed

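The authors deposited 1 table of raw read counts per gene for each of the 12 libraries. A TruSeq kit was used for the libraries, per the labels' protocols. Per the submitters' processing notes, Bowtie 0.12.2 and the mouse build mm8 were named, although the tables list goat gene IDs. Read assignment, strand use and goat build were not given in the sources used here. Overlapping and antisense genes therefore cannot be told apart. Names missing from the tables came from RefSeq (ARS1.2) by gene ID (15384 genes, 97.3%, matched); chromosomes are the RefSeq names that most of a table sequence's genes map to.

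Genes were filtered with filterByExpr (minimum count 10, minimum total 15; 13624 kept, 2186 removed). Counts were scaled by TMM (factors 0.514 to 1.50) and tested in edgeR 4.0.16 (quasi-likelihood F test), with dose as the only factor over all 12 libraries and Benjamini-Hochberg adjustment at 0.05. The common biological coefficient of variation was 0.363. The standard error is the size of the log2 change divided by the square root of F. Log2 CPM used a prior count of 2. The fitting script was tested on simulated counts with known changes. That was a check of the code, and how often changes of the size seen here would be called is not given. Alternatives were DESeq2 1.42.0, limma 3.58.1 voom with quality weights, other scalings, no filter, only the doses compared, a replicate block, table layout, and each library left out. Libraries of a dose differed beyond sampling noise (chi-square per degree of freedom 19.7 or more), and all 12 were kept.

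The genes, lists and tests were chosen with earlier results of these data known. Named are the 6 genes, CSF1R, their direct partners, and up to 4 genes per list by the p of any difference; 1 gene that the rule takes is not reported here. The class II chains were picked by description after their values could be seen. R was 4.3.3 and Python 3.11.15.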

Additional observations from a re-analysis of the deposited data

Results flagged for a closer look

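Within a dose, 2 of the 21 sets of 4 values looked at (6 genes and CSF1R at 3 doses) held a library whose gap to its nearest neighbour exceeded Dixon's critical share of the whole range for 4 values, which chance passes about 1 time in 20. AIF1 at the middle dose held 30.1 CPM in replicate 3, with a gap of 0.909 of the range. CD14 at the middle dose held 31.7 CPM in the same replicate, with a gap of 0.873 of the range. That library was the highest of its dose for AIF1 and the lowest for CD14, and it held 3.44% of milk protein reads against 52.0 to 58.9% in the other 3. Their part in these values was not tested.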

How the results depend on the processing

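Of 396 log2 differences of the 6 genes under the alternatives, 370 kept their direction and side of the threshold, 15 kept their direction and passed it, and 11 turned. CD68, high against low, became 0.082 with the replicate block, 0.29 in the layout of 8, and -0.38 to 0.25 with 1 library left out (0.097 without low-dose replicate 1, 0.25 without low-dose replicate 3). CD14, high against low, became -0.24 by library size alone and -0.15 (without low-dose replicate 2) to 0.47 (without low-dose replicate 3) with 1 library left out, among them -0.00021, -0.0068 and -0.14 without low-dose replicate 1, high-dose replicate 2 and high-dose replicate 4. Library size alone moved the median of all genes to -0.32 (high against low), -0.86 (middle against low) and 0.56 (high against middle). It gave CD14 -0.69 for middle against low and 0.45 for high against middle, and for middle against low SYK -0.38, TRAF6 -0.47, MYD88 -0.34, TLR4 -0.42, LY96 -0.73 and B2M -0.55. With 1 library left out LY96 ran from -0.067 (without middle-dose replicate 1) to 0.75, and LBP from -1.31 to 0.080 (without low-dose replicate 3); LBP was 0.18 in voom. Over all genes edgeR called 0 in each comparison. For middle against low DESeq2 called 1410, voom 4701, and leaving out 1 library gave 0 to 2390 (1 without middle-dose replicate 2, 16 without low-dose replicate 2, 2390 without middle-dose replicate 3). Of the 6 genes these called 5, 5 and 0 to 4. For high against low DESeq2 called 57, the layout of 8 gave 8, and leaving out 1 library gave 0 to 19 (19 without high-dose replicate 1). For high against middle DESeq2 called 272, voom 334 (1 of the 6 genes) and leaving out 1 library 0 to 505 (1 without low-dose replicate 4, 505 without middle-dose replicate 3). For any difference DESeq2 called 1119 (4 of the 6), voom 3839 (4), the layout of 8 gave 1, and leaving out 1 library 0 to 1289 (0 to 4 of the 6; 1 without middle-dose replicate 2, 3 without high-dose replicate 1, 1289 without middle-dose replicate 3). The cause of these moves was not tested. With the replicate block 0 genes were called in each comparison, as without it (1369, 2869, 1803 and 2350 with an unadjusted p under 0.05). Same-numbered libraries share only a number: their deviations correlated at -0.53 to 0.38 over 12 pairs, and 1 of 12 libraries correlated best with its own number. FCER1G, at 36 to 459 reads, had the least depth of the 6.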

Other observations

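Several genes described as MHC class II DQ chains had many reads in some libraries and few or none in others. A DQ beta chain (LOC102173177) had 673, 511, 783 and 0 reads in the low-dose replicates 1 to 4, 6, 98, 4 and 5 in the middle-dose replicates, and 0 in each of the 4 high-dose replicates. A DQ alpha chain (LOC102179937) had 3869, 3289, 19 and 5090 reads at the low dose, 60, 0, 145 and 22 at the middle dose, and 154, 1179, 2590 and 2375 at the high dose. A second DQ alpha chain (LOC102172887) had 1273, 902, 2014 and 79 reads at the low dose, 83, 317, 119 and 46 at the middle dose, and 124, 11, 32 and 23 at the high dose. The DR alpha chain, by contrast, had 9314 to 14274 reads in the low-dose libraries, and its ratio to CD74 stayed within a 1.33-fold range. These copies were chosen after their values were seen.

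Interferon response genes lay lower at both other doses than at the low dose: 13 of 13 estimates were lower at the high dose (median log2 difference -1.43, 10 with an unadjusted p under 0.05, where 53% and 4.18% of all genes were) and 13 of 13 at the middle dose (median -1.48, 11 with an unadjusted p under 0.05, where 52.6% and 11.3% of all genes were). In limma voom the median was -0.74 with 12 of 13 lower at the high dose, and -1.02 with 13 of 13 lower at the middle dose. It called 2 of them lower at the middle dose, where it called 17.5% of all genes lower. DESeq2 called 5 lower at the middle dose (4.29% of all genes). None passed edgeR's threshold with all libraries, and it called 2 lower at the middle dose without middle-dose replicate 3 (8.63% of all genes). Their summed level was 511 to 2046 CPM at the low dose, 332 to 455 CPM at the middle dose and 429 to 596 CPM at the high dose.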
